A study of Caenorhabditis elegans with 12 samples.

Results

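The *nas* genes of *C. elegans* encode astacins, a family of zinc-dependent metalloproteases. Members were taken as every gene of the deposited expression table whose identifier carries a *nas* symbol in the WBcel235 annotation, which gave 37 of 46726 genes. These 37 identifiers hold 36 symbols because *nas-2* is annotated at 2 loci. The rule used names alone and no measured value. It left out astacins under other symbols, such as *dpy-31*, *toh-1* and *hch-1*. Sums and ranks of the family below cover the 37 genes only.

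Astacins are made as secreted or membrane-bound proenzymes that become active once an inhibitory propeptide is removed, and they cut extracellular proteins. In *C. elegans* several of them work on the cuticle, the collagen-rich coat that the epidermis replaces at every larval moult: NAS-36 and NAS-37 are needed to shed the old cuticle, and NAS-38 acts in moulting and in the sleep that goes with it. NAS-6 and NAS-7 help to form the grinder, the cuticle-lined part of the pharynx that crushes bacteria. NAS-39 resembles the vertebrate and fly tolloid/BMP-1 proteases, and many other members have no assigned role.

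RNA was sequenced from whole worms of the *alh-6(lax105)* mutant and of WT (N2 Bristol) at 2 stages, with 3 libraries per group. The 4 groups were *alh-6* and WT day 3 adults, collected 120 hr after synchronized L1 larvae were put on plates with OP50 bacteria, and *alh-6* and WT L4 animals, collected at 48 hr. *alh-6* encodes a mitochondrial enzyme of proline catabolism, and the study compared the stages to separate developmental from adult effects of its loss. The mutant was a single allele, and no condition other than genotype and age differed between the groups by their labels.

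Expression is given as FPKM, the reads of a gene scaled to its length and to the reads on all genes of the library. The FPKM and the group means of read counts gave back whole reads, with 19248229 to 23575173 reads on genes per library. The study describes its RNA-seq replicates as biological, while the labels only number the libraries 1 to 3 and do not say what each came from, so the p-values measure the spread between these libraries. *alh-6* itself, whose mRNA is no check of the label where an allele leaves a transcript, had 60.6 to 62.6 FPKM in *alh-6* L4 animals and 68.4 to 70.5 FPKM in WT L4 animals. In day 3 adults it had 32 to 34.8 FPKM in *alh-6* and 31.8 to 33.9 FPKM in WT. Bulk RNA from whole worms does not tell fewer cells of a type from less RNA per cell. The summed FPKM of 5 germline markers was 2099 to 2169 in *alh-6* and 2189 to 2208 in WT day 3 adults, against 851 to 979 in *alh-6* and 1047 to 1143 in WT L4 animals. That of 5 body wall muscle markers was 256 to 287 in *alh-6* and 124 to 159 in WT day 3 adults, against 2229 to 2459 in *alh-6* and 2159 to 2497 in WT L4 animals.

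The *nas* genes lay on all 6 chromosomes, with 14 of 37 on V and 8 on X. Their expression was unequal along the genome. On V, *nas-16*, *nas-18*, *nas-17* and *nas-19* stood within 10391 bases (WBcel235 chromosome V, 11392320 to 11402710) and gave almost no reads: *nas-16* and *nas-18* had none in any library, *nas-17* had 5 over all 12 libraries and *nas-19* had 2. Further along V, *nas-20* (11470925 to 11472309, minus strand), *nas-21* (11472564 to 11473899, plus strand) and *nas-22* (11474699 to 11478007, plus strand) followed each other within 7083 bases, with 254 bases between *nas-20* and *nas-21* and 799 between *nas-21* and *nas-22*. These 3 neighbours differed widely, since *nas-20* was among the most abundant members at both stages while *nas-21* stayed below 3 FPKM in every library. Both *nas-2* loci, 106218 bases apart on V, had no read. They have the same exon length of 819 bases, and reads from copies that match each other may not be assigned to either one, so the absence of reads does not show the absence of transcript.

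Counted by library, 30 to 32 members had at least 1 read at L4 and 27 to 30 in day 3 adults. The number at or above 1 FPKM was 7 in each *alh-6* and 7 or 8 in WT day 3 adults, against 25 or 26 in *alh-6* and 24 or 25 in WT L4 animals. The summed FPKM of the family was 70.1 ± 6.40 in *alh-6* and 82.5 ± 1.33 in WT day 3 adults, against 258 ± 18.8 in *alh-6* and 211 ± 9.62 in WT L4 animals (SD, n = 3 each). As a share of reads on genes the family took 0.0105% in *alh-6* and 0.0123% in WT day 3 adults, and 0.0444% in *alh-6* and 0.0349% in WT L4 animals. All 6 day 3 libraries thus lay below all 6 L4 libraries. The *alh-6* libraries lay above the WT libraries at L4 and below them in day 3 adults.

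**Figure D1:**
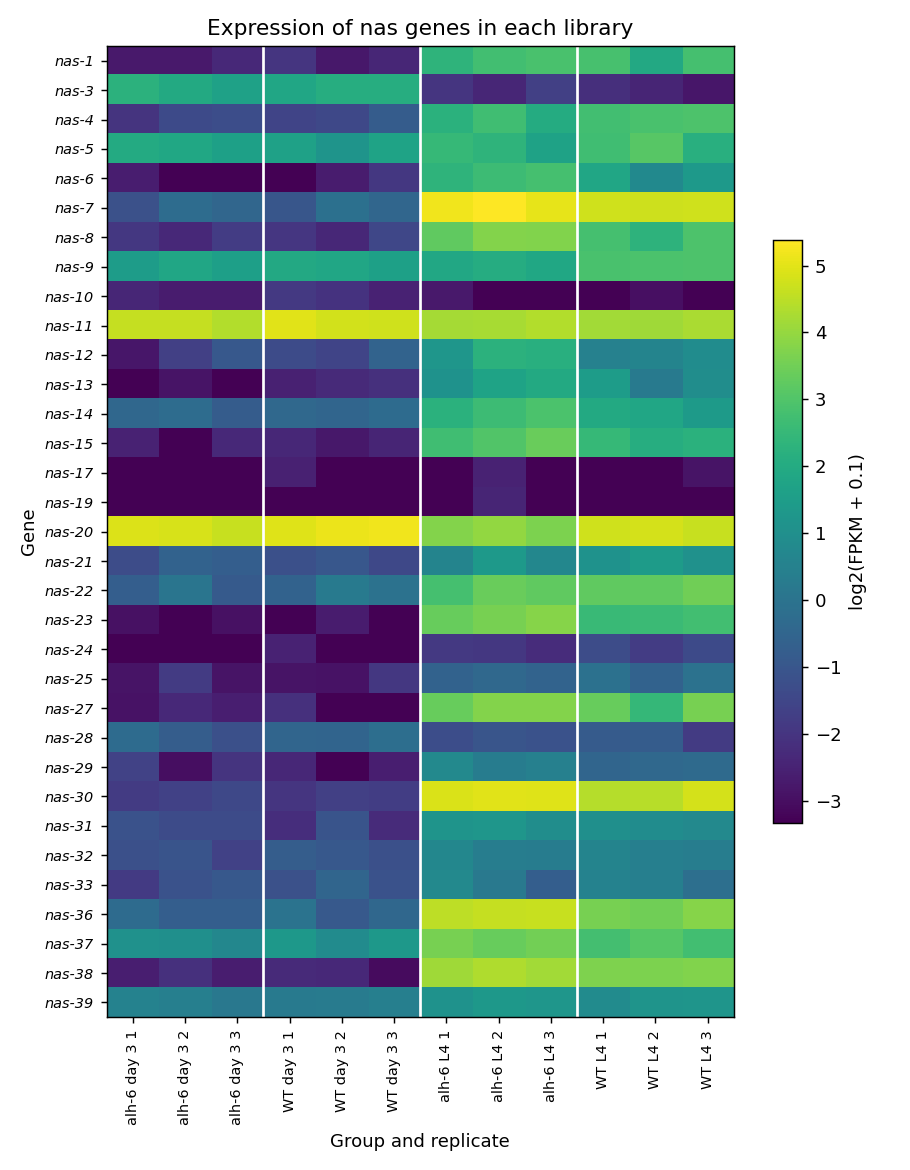
Expression of the 33 *nas* genes with any read, as log2(FPKM + 0.1) by colour, in each of the 12 libraries (columns, grouped by genotype and stage and numbered by replicate); the members without reads, both *nas-2* loci, *nas-16* and *nas-18*, are left out. Most members are bright in the L4 columns and dark in the day 3 columns, while *nas-11* and *nas-20* are bright in all of them and *nas-3* is bright in the day 3 columns.

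**Figure D2:**
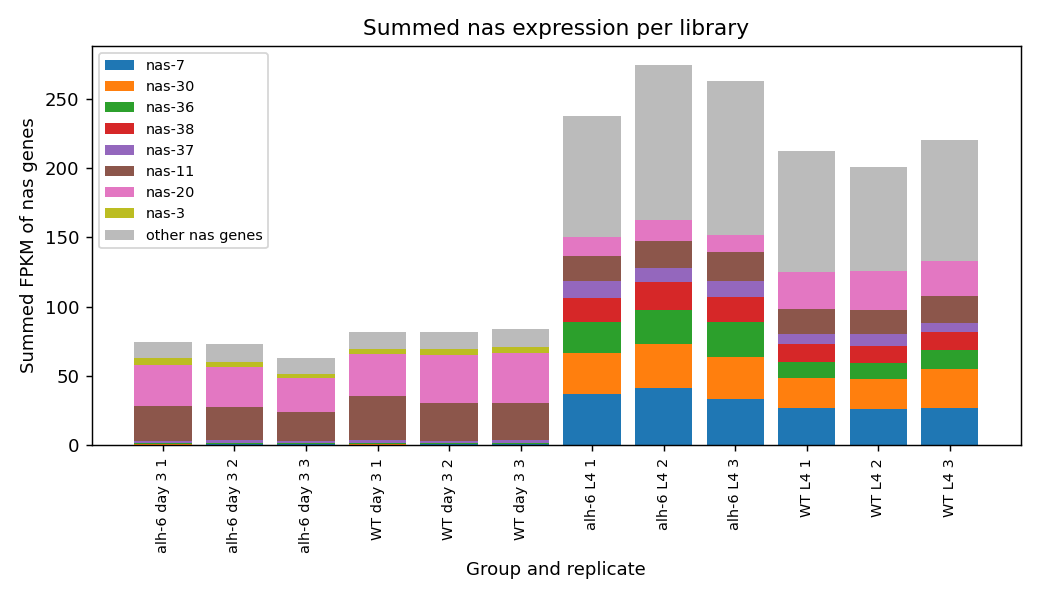
Summed FPKM of the *nas* genes in each library (bars, coloured by member). Day 3 bars reach 62.8 to 84.0 FPKM and consist mostly of *nas-20* and *nas-11*, and L4 bars reach 201 to 274 FPKM with many members contributing.

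The composition of the family differed with stage. In day 3 adults *nas-20* and *nas-11* together made up 72.6% of the summed FPKM in *alh-6* and 75.5% in WT, followed by *nas-3*, *nas-5*, *nas-9*, *nas-37* and *nas-39* at 1.16 to 3.94 FPKM on average. The first places at L4 were held in *alh-6* by *nas-7* (37.1 ± 4.19 FPKM), *nas-30* (30.8 ± 1.01 FPKM), *nas-36* (24.1 ± 1.33 FPKM) and *nas-11* (19.3 ± 1.21 FPKM). In WT they were held by *nas-7* (26.7 ± 0.514 FPKM), *nas-20* (26.6 ± 1.56 FPKM), *nas-30* (23.7 ± 3.69 FPKM) and *nas-11* (18.3 ± 0.974 FPKM; SD, n = 3 each). The libraries of *nas-7* and *nas-20* overlapped in WT L4 animals, and in *alh-6* L4 animals those of *nas-7* (33.1 to 41.5 FPKM) lay above those of *nas-20* (12.5 to 15.5 FPKM). The length behind the FPKM was 55.0% (*nas-6*) to 101% (*nas-38*) of the exon bases in the annotation used here, with a median of 95.6%, which bears on levels compared between genes and not on differences of 1 gene between groups.

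The first comparison asked which members differed between *alh-6* and WT at L4. Of the 26 members tested 11 were higher and 2 were lower in *alh-6* by limma at an adjusted p under 0.05. The higher ones included the moulting proteases *nas-36*, *nas-37* and *nas-38* and the grinder proteases *nas-6* and *nas-7*, higher by 0.47 to 1.26 on the log2 scale, and the lower ones were *nas-9* and *nas-20*, with log2 fold changes of −0.97 and −0.94. Over all 13851 genes tested 8.19% were higher and 7.15% lower by the same rule. With a 2-fold threshold added, *nas-6* and *nas-12* remained, both higher, and no member was lower, where 2.45% of all genes were higher and 0.881% lower. The median log2 fold change was 0.43 over the 26 members and −0.03 over all genes tested, with 19 members above 0 and 7 below. The other 11 members stayed under 1 FPKM in too many libraries to be tested.

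In subgroup V (*nas-33* and *nas-36* to *nas-38*), which holds the moulting proteases, 3 of 4 members were higher in *alh-6*. Subgroup counts cover genes with a *nas* symbol only. Astacins under other symbols, such as *dpy-31* (log2 fold change 0.03), are in none of them. *nas-36* had 22.6, 24.6 and 25.1 FPKM in *alh-6* libraries 1 to 3, against 11.9, 11.1 and 13.7 FPKM in WT. The groups were far apart compared with their spread, and the log2 fold change was 0.97 (SE 0.10, limma adjusted p = 0.000471), just under the 2-fold threshold. *nas-37* had 11.9, 10.2 and 11.5 FPKM in *alh-6*, against 6.75, 8.48 and 6.66 FPKM in WT. Its lowest *alh-6* library stood above its highest WT library, with a log2 fold change of 0.61 (SE 0.13, limma adjusted p = 0.0141). *nas-38* had 17.4, 20.2 and 17.9 FPKM in *alh-6*, against 13.0, 12.5 and 13.3 FPKM in WT, again without overlap, and its log2 fold change was 0.51 (SE 0.09, limma adjusted p = 0.00647). *nas-33* had 1.63, 1.05 and 0.510 FPKM in *alh-6*, against 1.36, 1.26 and 0.812 FPKM in WT, and its libraries overlapped (limma adjusted p = 0.778).

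**Figure D3:**
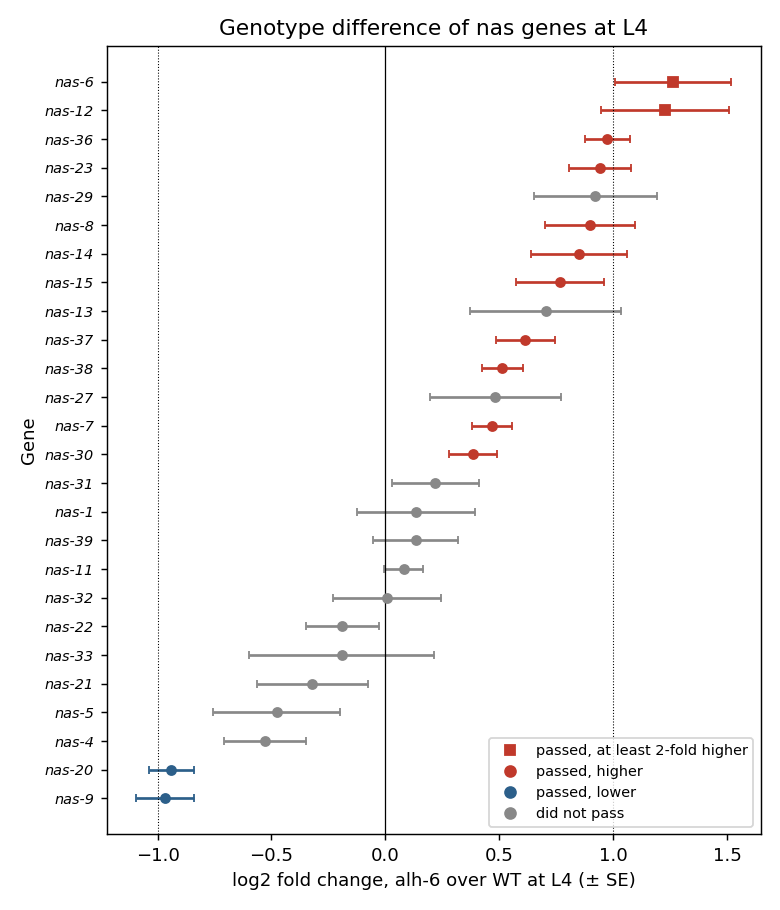
*alh-6* over WT at L4 as log2 fold change, for the 26 *nas* genes tested (points, with the SE of the limma fit as bars), ordered by value; dotted lines mark a 2-fold difference. The 11 members in red were higher and the 2 in blue, *nas-9* and *nas-20*, lower at an adjusted p under 0.05, and the squares of *nas-6* and *nas-12* lie beyond 2-fold.

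Subgroup II (*nas-6* to *nas-15*) had 6 members higher and 1 lower in *alh-6* of 9 tested. Of the grinder proteases, *nas-7* had 36.7, 41.5 and 33.1 FPKM in *alh-6* libraries, against 27.1, 26.1 and 26.9 FPKM in WT. The WT libraries were within 1 FPKM of each other and below all *alh-6* libraries (log2 fold change 0.47, SE 0.09, limma adjusted p = 0.00912). *nas-6* had 4.91, 6.15 and 6.94 FPKM in *alh-6*, against 3.46, 1.67 and 2.44 FPKM in WT. The groups did not overlap (log2 fold change 1.26, SE 0.25, limma adjusted p = 0.0119). Of the grinder proteases *nas-6* thus passed the 2-fold threshold and *nas-7* did not.

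Among the members of subgroup II without an assigned role here, *nas-12* had 2.28, 4.72 and 4.37 FPKM in *alh-6*, against 1.31, 1.41 and 1.78 FPKM in WT. *alh-6* library 1 stood apart from its 2 replicates and still above every WT library (log2 fold change 1.23, SE 0.28, limma adjusted p = 0.0205). 60 exon bases of *nas-12* are shared with F01G10.6 on the opposite strand, and whether the counting used strand is not given in the sources used here. *nas-8* (12.1 ± 2.25 FPKM in *alh-6* and 6.47 ± 1.45 FPKM in WT), *nas-14* (6.04 ± 1.39 FPKM in *alh-6* and 3.29 ± 0.634 FPKM in WT) and *nas-15* (8.33 ± 2.04 FPKM in *alh-6* and 4.79 ± 0.729 FPKM in WT; SD, n = 3 each) were higher by 0.77 to 0.90 on the log2 scale, with limma adjusted p-values of 0.0179 to 0.0283. In all 3 every *alh-6* library was above every WT library.

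*nas-9* went the other way, with 3.61, 4.12 and 3.56 FPKM in *alh-6* libraries, against 7.19, 7.44 and 7.67 FPKM in WT. The 3 libraries of each group lay close together and the groups well apart (log2 fold change −0.97, SE 0.13, limma adjusted p = 0.00143). *nas-13* had 2.07, 3.19 and 3.76 FPKM in *alh-6*, against 2.68, 1.10 and 1.82 FPKM in WT, with overlap (limma adjusted p = 0.187). *nas-11*, the most abundant member of the subgroup after *nas-7*, had 18.4 to 20.7 FPKM in *alh-6* and 17.4 to 19.3 FPKM in WT (log2 fold change 0.08, limma adjusted p = 0.546). *nas-10* had at most 2 reads in a group at L4 and was not tested.

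In subgroup III (*nas-16* to *nas-30*) 2 members were higher and 1 lower of 7 tested. *nas-30* had 29.8, 31.8 and 30.8 FPKM in *alh-6* libraries, against 21.4, 21.8 and 28.0 FPKM in WT. WT library 3 came near to the *alh-6* values without reaching them, and the log2 fold change was 0.39 (SE 0.11, limma adjusted p = 0.0424). *nas-23* had 10.1, 11.9 and 13.96 FPKM in *alh-6*, against 5.87, 5.96 and 6.66 FPKM in WT (log2 fold change 0.94, SE 0.14, limma adjusted p = 0.00245), so that its lowest *alh-6* library was well above its highest WT library. *nas-20*, by contrast, had 13.5, 15.5 and 12.5 FPKM in *alh-6*, against 26.7, 28.1 and 24.97 FPKM in WT. It stood second in the family in WT L4 animals and sixth in *alh-6* L4 animals, and its log2 fold change was −0.94 (SE 0.10, limma adjusted p = 0.000514). Its neighbours gave no difference past the threshold: *nas-21* had 1.43 to 2.43 FPKM in *alh-6* and 2.00 to 2.65 FPKM in WT (limma adjusted p = 0.403), and *nas-22* had 6.88 to 10.4 FPKM in *alh-6* and 9.34 to 11.2 FPKM in WT (limma adjusted p = 0.457).

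*nas-29* had 1.59, 1.17 and 1.30 FPKM in *alh-6*, against 0.612, 0.669 and 0.703 FPKM in WT. Its groups did not overlap, but its limma adjusted p was 0.0505. *nas-27* had 10.1, 13.4 and 13.5 FPKM in *alh-6*, against 10.2, 5.39 and 12.0 FPKM in WT, and WT library 2 lay far under the others (limma adjusted p = 0.297). That library was the lowest of the 3 WT L4 libraries for 11 of the 25 members with a WT L4 mean of at least 1 FPKM, where libraries 1 and 3 were lowest for 6 and 8. *nas-24*, *nas-25* and *nas-28* stayed under 1 FPKM in every library of both genotypes at L4.

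The remaining subgroups gave no member past the test. In subgroup I *nas-4* had 4.65, 6.48 and 4.004 FPKM in *alh-6*, against 6.64, 7.29 and 7.62 FPKM in WT, so that all *alh-6* libraries were below the WT libraries (log2 fold change −0.53, SE 0.18, limma adjusted p = 0.0812). *nas-4* shares 437 exon bases with C05D11.5 on the same strand, and reads in that stretch cannot be told apart. *nas-5* (3.15 to 5.56 FPKM in *alh-6*, 4.39 to 8.56 FPKM in WT) and *nas-1* (4.96 to 7.21 FPKM in *alh-6*, 3.66 to 7.07 FPKM in WT) overlapped between genotypes, and *nas-3* had 0.0448 to 0.214 FPKM at L4. In subgroups IV and VI *nas-31* had 1.83 to 2.27 FPKM in *alh-6* and 1.62 to 1.94 FPKM in WT, *nas-32* 1.16 to 1.53 FPKM in *alh-6* and 1.184 to 1.42 FPKM in WT, and *nas-39* 2.07 to 2.40 FPKM in *alh-6* and 1.74 to 2.24 FPKM in WT. These 3 pairs overlapped, and their log2 fold changes were 0.01 to 0.22.

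**Figure D4:**
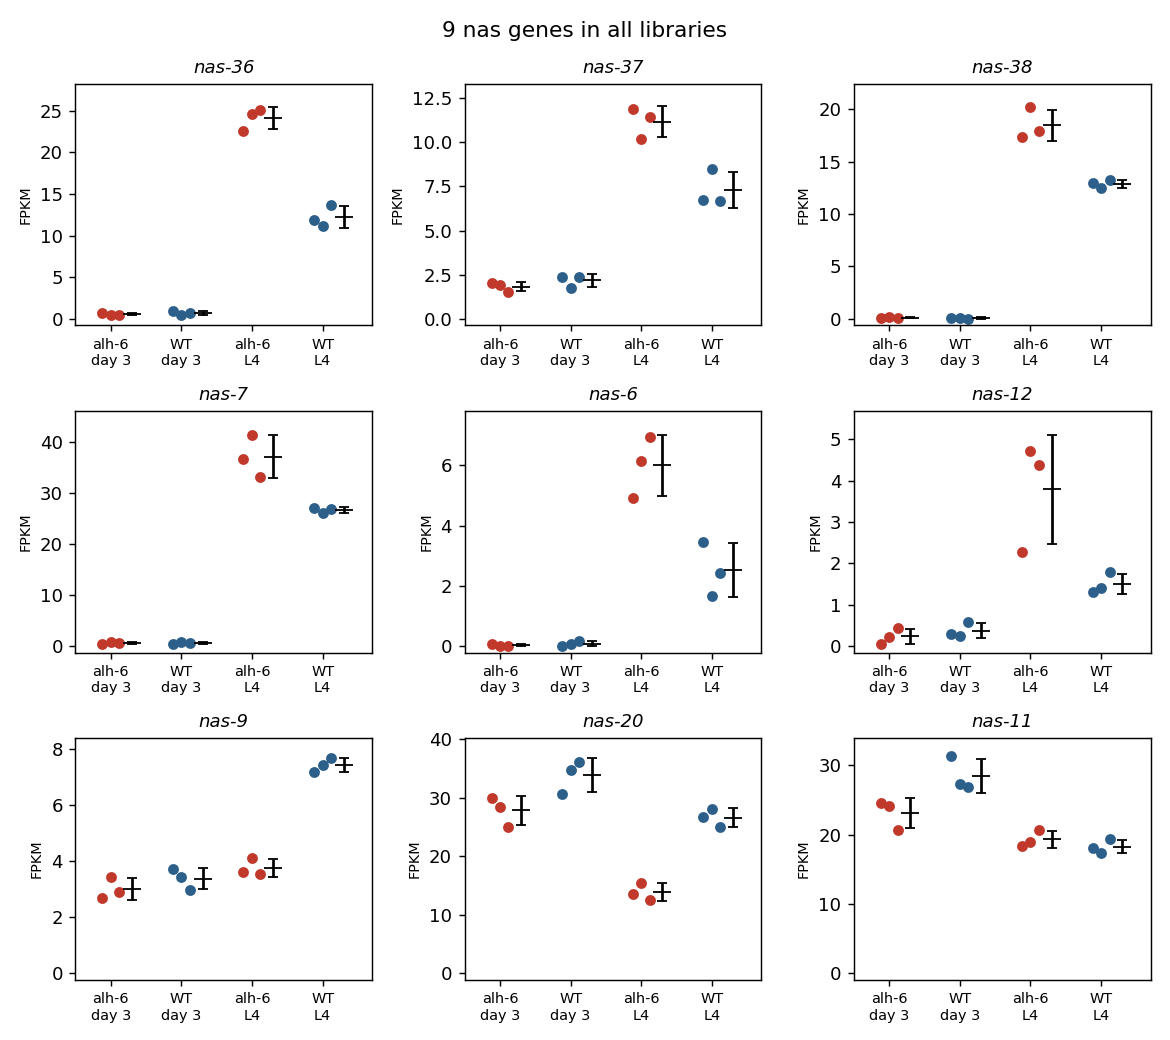
FPKM of 9 *nas* genes in the 3 libraries of each group (points, *alh-6* in red and WT in blue), with the mean and SD beside them. The first 6 genes are higher in *alh-6* than in WT at L4, *nas-9* and *nas-20* are lower in *alh-6* at L4, and *nas-11* overlaps between genotypes at L4.

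Other genes of moulting also differed between the genotypes at L4. In a list of 18 moulting and apical matrix genes (such as *mlt-10* and *noah-1*) 15 were higher in *alh-6* and none lower by limma. Of these 13 were higher by at least 2-fold, and the list's median was 1.22 on the log2 scale. Over all genes tested 8.19% were higher, and 2.45% by at least 2-fold. This list and those below were chosen with earlier results of these data known, so their counts are not independent of these data. The summed FPKM of the list was 488 to 554 in *alh-6* libraries and 274 to 289 in WT libraries. Of 16 cuticle collagens and genes of collagen assembly or processing 10 were higher and 1 lower, with a median of 0.96. Among those that are not collagens, *dpy-18* (0.87) and *phy-2* (0.55) were higher by limma. *bli-4*, *phy-3*, *pdi-2*, *bli-3* and *tsp-15* did not pass, at log2 fold changes of −0.46 to 0.23. A list of metalloproteases of other families also held the inhibitor genes *timp-1* and *cri-2*. Of its 19 genes tested 6 were higher and 2 lower, with a median of 0.06. Of the astacins under other symbols *dpy-31*, which cuts a procollagen, had a log2 fold change of 0.03 and *toh-1* one of 0.25 (limma adjusted p-values 0.848 and 0.0901). At L4 *toh-1* averaged 64.3 FPKM in *alh-6* and 54.2 FPKM in WT, above every *nas* gene. *dpy-31* averaged 11.7 and 11.5 FPKM at L4, and 5.93 and 5.38 FPKM in day 3 adults. *hch-1*, the hatching protease, was too low to be tested. It averaged 0 FPKM in *alh-6* and 0.0163 FPKM in WT at L4. In day 3 adults it had 0.265 ± 0.153 FPKM in *alh-6* and 0.907 ± 0.131 FPKM in WT (SD).

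Moulting genes oscillate within each larval stage, and of 5 epidermis markers 2 were higher and 1 lower in *alh-6*, with a list median of 0.05 on the log2 scale. *dpy-7* and *rol-6*, a pair of cuticle collagens, were higher by 1.84 and 1.35, while the adult collagen *col-19* fell by 0.58. The summed FPKM of the 5 epidermis markers was 950 to 1149 in *alh-6* and 1403 to 1464 in WT L4 animals. Of that sum *dpy-7* made up 16.8 FPKM in *alh-6* and 4.64 FPKM in WT on average, and *rol-6* 104 and 40.8 FPKM. The lower sum in *alh-6* thus came from other markers of the list and is no measure of the epidermis as a whole. That of 5 pharynx markers was 83.0 to 106 in *alh-6* and 73.3 to 103 in WT. Their part in the differences of the *nas* genes was not tested, and a difference in the point within the L4 stage cannot be told apart from one of genotype, since each group is 1 time point. Of the 13 members 7 (*nas-6*, *nas-7*, *nas-9*, *nas-20*, *nas-23*, *nas-36* and *nas-38*) passed in each of the 6 fits with 1 library left out, and 6 were lost in at least 1 of them. With all 12 libraries in 1 fit *nas-7* (limma adjusted p = 0.223) and *nas-38* (limma adjusted p = 0.162) also missed the threshold. The count was 8 without *alh-6* library 3, and the number beyond 2-fold was 6 without *alh-6* library 1, 4 without WT library 3 and 1 without WT library 1, WT library 2 or *alh-6* library 3. *nas-12* missed the threshold without WT library 1 or 2 or *alh-6* library 2 or 3 (limma adjusted p = 0.0512 to 0.0689). *nas-14* and *nas-15* missed it without WT library 2 or 3 or *alh-6* library 2 or 3, *nas-8* without *alh-6* library 2 or 3, *nas-37* without WT library 1 and *nas-30* without any library but WT library 3.

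The second comparison asked the same of day 3 adults, in which 7 members were expressed highly enough to be tested (*nas-3*, *nas-5*, *nas-9*, *nas-11*, *nas-20*, *nas-37* and *nas-39*). None of the 7 was called in either direction by limma with or without the 2-fold threshold, and limma-voom on the recovered reads called none with it. Without that threshold *nas-11* (adjusted p = 0.0347) and *nas-20* passed by limma-voom, and *nas-20* passed by limma without *alh-6* library 1 (adjusted p = 0.0487). Over all 10501 genes tested 0.409% were higher and 0.409% lower by 2-fold, and 2.14% were higher and 4.18% lower without that threshold. At an unadjusted p under 0.05 there were 2 members, *nas-11* and *nas-20*. The log2 fold changes ran between −0.30 and 0.30 with a median of −0.17, against −0.08 over all genes tested.

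*nas-11* had 24.6, 24.2 and 20.6 FPKM in *alh-6* day 3 adults, against 31.3, 27.3 and 26.9 FPKM in WT. All *alh-6* libraries were below the WT libraries, at a log2 fold change of −0.30 (SE 0.09, limma adjusted p = 0.0772). *nas-11* shares 163 exon bases with *smf-2* on the opposite strand. *nas-20* had 29.97, 28.4 and 25.03 FPKM in *alh-6*, against 30.5, 34.7 and 36.1 FPKM in WT, also without overlap (log2 fold change −0.28, SE 0.09, limma adjusted p = 0.0876). *nas-3* had 4.68, 3.83 and 3.03 FPKM in *alh-6*, against 3.44, 4.18 and 4.20 FPKM in WT, and *nas-9* had 2.67, 3.44 and 2.90 FPKM in *alh-6*, against 3.73, 3.42 and 2.98 FPKM in WT. Both overlapped between the genotypes, as did *nas-5* (3.01 to 3.92 FPKM in *alh-6* and 2.19 to 3.18 FPKM in WT), *nas-37* (1.53 to 2.03 FPKM in *alh-6* and 1.75 to 2.39 FPKM in WT) and *nas-39* (1.03 to 1.36 FPKM in *alh-6* and 1.08 to 1.25 FPKM in WT). Of the moulting proteases *nas-36* had 0.501 to 0.730 FPKM in *alh-6* and 0.438 to 0.903 FPKM in WT, and *nas-38* had 0.0639 to 0.129 FPKM in *alh-6* and 0.0192 to 0.106 FPKM in WT.

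The third question was how the members differed between day 3 adults and L4 animals of each genotype. In *alh-6* 21 of 27 members tested were lower and 2 higher by at least 2-fold in day 3 adults (limma), and in WT 23 were lower and 1 higher. A fall was also common among all genes: 43.6% of the 14497 genes tested were lower and 22.3% higher in *alh-6*, and 42.5% were lower and 21.7% higher in WT. The median log2 fold change of the members was −3.65 in *alh-6*, against −0.61 over all genes, and −2.74 in WT, against −0.52 over all genes. After each library was rescaled by its median ratio to the mean library the medians over all genes were −0.34 in both genotypes. Worms moult for the last time at the end of L4, and adults carry embryos. A list of 5 embryo markers summed to 7.07 to 7.20 FPKM in *alh-6* and 9.51 to 11.5 FPKM in WT day 3 adults, against 0.297 to 0.521 FPKM in *alh-6* and 0.297 to 0.614 FPKM in WT at L4. The 5 pharynx markers summed to 16.7 to 20.2 FPKM in *alh-6* and 18.2 to 19.2 FPKM in WT day 3 adults. The 5 epidermis markers summed to 149 to 189 FPKM and 151 to 160 FPKM. Both were below their L4 sums given above. Of the 18 listed moulting genes 16 were lower by at least 2-fold in *alh-6* (median −4.39). In WT 14 were lower and 1 higher (median −3.12). That list was chosen with earlier results known. The part of all these genes and of the germline and muscle markers given above in the stage differences was not tested.

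**Figure D5:**
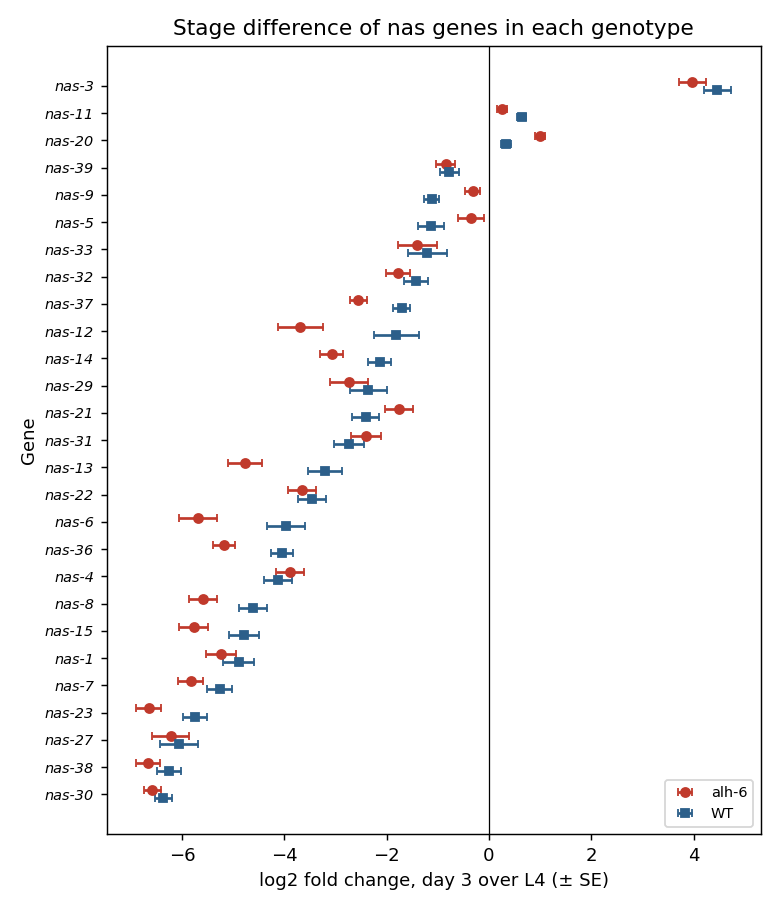
Log2 fold change of day 3 adults over L4 animals for the 27 *nas* genes tested, in *alh-6* (red circles) and WT (blue squares), with the SE of the limma fit as bars. *nas-3*, *nas-11* and *nas-20* lie above 0 in both genotypes and the other 24 members below 0, down to −6.65 in *alh-6* (*nas-38*) and −6.36 in WT (*nas-30*).

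Of the moulting proteases *nas-38* had 0.0661, 0.129 and 0.0639 FPKM in *alh-6* day 3 adults, against 17.4, 20.2 and 17.9 FPKM in *alh-6* L4 animals. In WT it had 0.106, 0.102 and 0.0192 FPKM in day 3 adults, against 13.0, 12.5 and 13.3 FPKM at L4. The day 3 values came from 12 reads in *alh-6* and 11 in WT over 3 libraries each, and the log2 fold change was −6.65 in *alh-6* and −6.25 in WT (SE 0.23 each, limma adjusted p = 1.27e-11 and 2.59e-11). *nas-36* had 0.730, 0.508 and 0.501 FPKM in *alh-6* and 0.903, 0.438 and 0.657 FPKM in WT day 3 adults, and its log2 fold change was −5.17 in *alh-6* and −4.05 in WT (SE 0.21 each, limma adjusted p = 5.55e-11 and 6.45e-10). *nas-37* kept a level of 1.83 ± 0.262 FPKM in *alh-6* and 2.18 ± 0.372 FPKM in WT day 3 adults (SD, n = 3 each), at log2 fold changes of −2.56 and −1.70 (limma adjusted p = 4.84e-09 and 3.52e-07). It thus fell less than *nas-36* and *nas-38* and was the one moulting protease still tested among adults. *nas-33* fell by 1.40 in *alh-6* and by 1.20 in WT on the same scale.

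The grinder protease *nas-7* had 0.345, 0.751 and 0.630 FPKM in *alh-6* and 0.404, 0.820 and 0.635 FPKM in WT day 3 adults. The most abundant member at L4 was thus under 1 FPKM in every adult library, with log2 fold changes of −5.83 in *alh-6* and −5.26 in WT (limma adjusted p = 6.06e-11 and 1.82e-10). *nas-6* had 1 read over the 3 *alh-6* day 3 libraries, against 304 reads at L4, a depth-adjusted ratio of 0.00349 (exact 95% interval 8.82e-05 to 0.0196). In WT it had 4 reads, against 126 at L4, a ratio of 0.0307 (0.00825 to 0.0807). Such intervals cover counting error only.

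Among members without an assigned role here, *nas-30* had 0.183, 0.224 and 0.266 FPKM in *alh-6* and 0.154, 0.213 and 0.200 FPKM in WT day 3 adults, where its L4 libraries all exceeded 21 FPKM. Its log2 fold changes were −6.58 in *alh-6* and −6.36 in WT (SE 0.17 each, limma adjusted p = 7.61e-13 and 1.23e-12). *nas-27* had 0.0346, 0.102 and 0.0669 FPKM in *alh-6* day 3 adults, and in WT 0.133 FPKM in library 1 and no read in the other 2. Over the libraries of a group that was 6 reads, against 1144 at L4, in *alh-6* and 4 reads, against 837 at L4, in WT. *nas-23* had 2 reads over the day 3 libraries of each genotype, against 1226 at L4 in *alh-6* (ratio 0.00173, exact 95% interval 0.00021 to 0.00627) and 616 at L4 in WT (ratio 0.00314, interval 0.00038 to 0.0114). *nas-13* had 1 read in *alh-6* day 3 adults, against 255 at L4 (ratio 0.00416, interval 0.000105 to 0.0234), and 9 in WT, against 157 at L4. All 4 of these members, and *nas-6*, were called as lower in both genotypes. *nas-24*, which was not tested, had no read in *alh-6* day 3 adults, against 12 at L4, and 2 reads in WT, against 20 at L4.

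The other members that were lower by at least 2-fold in day 3 adults of both genotypes were *nas-1*, *nas-4*, *nas-8*, *nas-12*, *nas-14*, *nas-15*, *nas-21*, *nas-22*, *nas-29*, *nas-31* and *nas-32*. Their log2 fold changes ran from −5.77 (*nas-15*) to −1.75 (*nas-21*) in *alh-6* and from −4.89 (*nas-1*) to −1.43 (*nas-32*) in WT. *nas-25* was not tested and had 7 reads in day 3 adults of each genotype, against 51 at L4 in *alh-6* and 63 at L4 in WT.

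A few members did not share this fall. *nas-3* had 4.68, 3.83 and 3.03 FPKM in *alh-6* day 3 adults, against 0.151, 0.0926 and 0.214 FPKM in *alh-6* L4 animals. In WT it had 3.44, 4.18 and 4.20 FPKM in day 3 adults, against 0.126, 0.0853 and 0.0448 FPKM at L4. It was the tested member with the largest rise, with log2 fold changes of 3.97 in *alh-6* and 4.46 in WT (SE 0.26 each, limma adjusted p = 5.72e-09 and 1.89e-09) on the log2(FPKM + 0.1) scale, which understates the change of a gene this low at L4. By reads it was 24.9 times (13.7 to 50.5) the L4 level in *alh-6* and 45.8 times (20.8 to 126) in WT. *nas-10* and *nas-28*, which were not tested, had 7 and 50 reads in *alh-6* day 3 adults, against 2 and 36 at L4, and 14 and 68 reads in WT day 3 adults, against 1 and 38 at L4.

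*nas-20* had 29.97, 28.4 and 25.03 FPKM in *alh-6* day 3 adults, against 13.5, 15.5 and 12.5 FPKM in *alh-6* L4 animals, a log2 fold change of 1.00 (SE 0.10, limma adjusted p = 3.63e-07). That value sat on the 2-fold threshold, and it was 0.93 to 0.99 without *alh-6* L4 library 1 or 3 or *alh-6* day 3 library 1 or 2. In WT it had 30.5, 34.7 and 36.1 FPKM in day 3 adults, against 26.7, 28.1 and 24.97 FPKM at L4, a log2 fold change of 0.34 (SE 0.10, limma adjusted p = 0.00500). *nas-11* was higher in day 3 adults by 0.26 in *alh-6* and 0.64 in WT (SE 0.09 each, limma adjusted p = 0.0166 and 1.51e-05), and its *alh-6* libraries of the 2 stages overlapped at 20.6 FPKM in a day 3 library and 20.7 FPKM in an L4 library. The difference in *alh-6* missed the threshold without *alh-6* L4 library 1 or *alh-6* day 3 library 1 or 2 (limma adjusted p of at most 0.0653).

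*nas-9* fell by 0.32 in *alh-6* (SE 0.14, limma adjusted p = 0.0437) and by 1.12 in WT (SE 0.14, limma adjusted p = 4.10e-06), and the value in *alh-6* was −0.08 (limma adjusted p = 0.586) after rescaling and missed the threshold without *alh-6* L4 library 1 or 2 or *alh-6* day 3 library 1 or 3 (limma adjusted p of at most 0.143). *nas-5* had a log2 fold change of −0.35 in *alh-6* (SE 0.26, limma adjusted p = 0.210) and −1.13 in WT (SE 0.26, limma adjusted p = 0.00103). It was the one tested member without a stage difference past the test in *alh-6*. The WT fall of *nas-5* was under 2-fold without WT L4 library 2 (−0.90) or WT day 3 library 2 (−0.97). It was also under 2-fold after rescaling (−0.975) or with a pseudocount of 1 (−0.935). The WT fall of *nas-9* was under 2-fold after rescaling (−0.963) or with a pseudocount of 1 (−0.949). In all of these fits the limma adjusted p stayed under 0.05. *nas-39* fell by 0.84 in *alh-6* and by 0.77 in WT (SE 0.18 each, limma adjusted p = 0.000641 and 0.00131). It shares 276 exon bases with F38E9.1 on the same strand, so part of its reads may belong to that gene.

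The last comparison tested whether the difference between *alh-6* and WT itself differed between the stages, as the log2 fold change in day 3 adults minus that at L4. Of 27 members tested 2 had a higher value (*nas-9* and *nas-20*) and 2 a lower one (*nas-36* and *nas-37*) at a limma adjusted p under 0.05, where 3.37% of 14497 genes were higher and 4.01% lower. With the 2-fold threshold *nas-36* remained, where 0.966% of all genes were higher and 1.95% lower. The median over the members was −0.38, against −0.03 over all genes.

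For *nas-36* the difference of log2 fold changes was −1.12 (SE 0.30, limma adjusted p = 0.0420): its *alh-6* libraries were all higher than the WT libraries at L4 and overlapped with them in day 3 adults. For *nas-37* it was −0.85 (SE 0.23, limma adjusted p = 0.0461). For *nas-20* it was 0.66 (SE 0.14, limma adjusted p = 0.0142) and for *nas-9* 0.80 (SE 0.20, limma adjusted p = 0.0276), both lower in *alh-6* at L4 by almost 2-fold and closer to WT in day 3 adults. *nas-13* (−1.56, limma adjusted p = 0.0627), *nas-6* (−1.72, limma adjusted p = 0.0685) and *nas-12* (−1.88, limma adjusted p = 0.0881) had larger values that did not pass. All 3 had under 1 FPKM in every day 3 library. The day 3 libraries of *nas-36* were all under 1 FPKM as well (0.438 to 0.903 FPKM). Of the 18 moulting genes of the list 14 had a lower value by this test and none a higher one. That list was chosen with earlier results of these data known. *nas-20* passed in each of the 12 fits with 1 library left out and the other 3 were lost in at least 1. *nas-36* kept its call without WT day 3 library 2 (limma adjusted p = 0.0112) or *alh-6* day 3 library 1 and lost it without each of the other 10 libraries, at limma adjusted p-values of 0.0618 to 0.0903.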

How the data were processed

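Whole worms of *alh-6(lax105)* and WT were profiled by RNA-Seq at L4 and as day 3 adults, in 3 libraries per group. The authors deposited an FPKM value for every gene in every library. Their deposited tables of each stage give a normalized signal, the mean over a group of reads divided by size factors, and also hold the authors' log2 fold changes and p-values, which were not used. The submitters' processing notes name CASAVA 1.8, Bowtie2 2.2.3, TopHat2 2.0.12, HTSeq 0.6.1, DESeq 1.18.0 and the build ce11; which settings were used, and how strand and reads with several matches were treated, is not given in the sources used here.

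FPKM and group means together gave whole reads for 100% of the values above 0 (within 0.01 of a whole number), with 19248229 to 23575173 reads on genes per library (median 20632421). Symbols and positions came from the WBcel235 annotation. limma 3.58.1 in R 4.3.3 (eBayes with trend and robust) was fitted on log2(FPKM + 0.1) over all genes at or above 1 FPKM in at least 3 libraries of the fit, with 6 libraries for a genotype comparison and 12 libraries for stage and for genotype by stage. A member was called where it differed by at least 2-fold and its p, adjusted by Benjamini-Hochberg over all genes tested, was under 0.05. Fold changes on this scale understate those of low genes. Values per library were given for members called between genotypes or by genotype and stage, the 3 most abundant at each stage and those with a known role. They were also given for the 1 member called higher in WT day 3 adults and the 3 with the largest falls in WT. *nas-1*, *nas-4*, *nas-5*, *nas-8*, *nas-9*, *nas-13*, *nas-14*, *nas-15*, *nas-21*, *nas-22*, *nas-23*, *nas-29* and *nas-33* were added after their values were seen. Subgroups follow the gene numbers and hold only genes with a *nas* symbol. Membership in the family followed names alone. The lists, and the members given library by library, were chosen with earlier results of these data known. Alternatives were other pseudocounts (1 and 0.01), no filter, rescaling by median ratios, the replicate number as a block, no fold threshold, limma-voom on recovered reads, another set of libraries in the fit and each library left out. The fits were tested on simulated data, with changes placed in well-expressed genes and larger than any genotype difference of a member. That test does not show how the fits treat smaller changes or low genes.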

Additional observations from a re-analysis of the deposited data

Results flagged for a closer look

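*nas-36* was the one member whose difference between *alh-6* and WT was called as unlike at the 2 stages by at least 2-fold in a test of that difference itself. Its log2 fold change in day 3 adults minus that at L4 was −1.12 (SE 0.30, limma adjusted p = 0.0420), with all 3 *alh-6* libraries above all 3 WT libraries at L4 and overlap in day 3 adults. Its day 3 libraries had 0.438 to 0.903 FPKM, too low for a test between the genotypes in day 3 adults alone. Over the alternatives the adjusted p ran from 0.00200 to 0.0903.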

How the results depend on the processing

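At L4 the 2 members called became 13 with no fold threshold and 1 with a pseudocount of 1, with no filter on low values or with all 12 libraries in 1 fit, and 1 to 6 with 1 library left out. The 13 members passing without a fold threshold became 8 with all 12 libraries in 1 fit and 8 to 12 with 1 library left out. For genotype by stage the 1 call became 4 with no fold threshold, 2 with a pseudocount of 1, 0 with a pseudocount of 0.01 or no filter, 2 with the replicate block and 0 or 1 with 1 library left out. The 4 members passing there without a fold threshold became 11 with a pseudocount of 1, 2 with a pseudocount of 0.01 or no filter, and 1 to 4 with 1 library left out. No member was called between genotypes in day 3 adults with the 2-fold threshold under any alternative run, among them the fit with no filter on low values, which tested 32 members. The stage calls ran from 18 to 27 in WT and from 19 to 26 in *alh-6*. Directions were compared over the alternatives for chosen members only, and not, for example, for *nas-1*, *nas-32* or *nas-33* at L4. Among those compared, the direction reversed for *nas-3* in day 3 adults (0.026 when rescaled, −0.199 to 0.107 with 1 library left out). It also reversed for *nas-39* in day 3 adults (−0.0173 to 0.166 with 1 library left out). Neither of these members had passed the test there. Rescaling moved the summed FPKM to 237 in *alh-6* and 195 in WT L4 animals and to 85.3 in WT day 3 adults. Deviations from the group means correlated at −0.07 to 0.14 between libraries with the same number and at −0.10 to 0.11 between those with different numbers, so the numbers were not taken as pairs, and the replicate block kept the counts of 2 at L4, 24 in WT and 23 in *alh-6*. At a median of 20632421 reads per library the members under 1 FPKM rest on few reads, and the filter left most of them out of the genotype comparison in adults. *nas-36*, for example, had 75 reads in *alh-6* and 92 in WT day 3 adults, a depth-adjusted ratio of 0.871 (exact 95% interval 0.634 to 1.195).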
